A study of Mus musculus with 13 samples.

Results

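The 9 genes described here encode receptors through which microglia sense growth factors, chemokines, complement and cytokines: Csf1r, Csf3r, Cx3cr1, C5ar1, Il6ra, Il6st, Il10ra, Ifngr1 and Tnfrsf1b. They were taken by name from the 17280 genes used, and all 9 were present on every plate. C5ar1 is strictly a complement receptor and Il6st a shared signalling chain, so the set is wider than cytokine receptors in the narrow sense. The cells were CD11b-positive, CD45-low cells sorted one per well from the brains of male C57BL/6J mice, and the study describes them as hypothalamic, whereas the sample labels give brain as the tissue and name cerebellum, hippocampus and cortex beside hypothalamus in the dissection, so the region of a given well is not known here. Mice were kept on chow (NC, with 23.6% of calories from fat, as the authors give it) or on a high-fat diet (HFD, 60% fat) for 1 day, 3 days, 1 week, 4 weeks, 9 weeks or 16 weeks. The same sample labels give a single feeding time of 3 days for all plates, so the length of HFD was taken from the deposited table of wells, in which 7 days and 1 week are separate names that were joined here. No transgene, knockout or drug was given to any group, and all mice were of 1 strain and sex.

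Microglia depend on colony-stimulating factor 1, read by Csf1r, for survival, and on neuronal fractalkine, read by Cx3cr1, for contact with neurons. The interleukin-6 receptor chain Il6ra binds its ligand and then pairs with Il6st (gp130), the chain that signals through JAK and STAT proteins. Il10ra, Ifngr1 and Tnfrsf1b are ligand-binding chains for interleukin-10, interferon gamma and tumour necrosis factor, and C5ar1 binds the complement fragment C5a.

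Of 2496 wells on 13 plates, 1617 held at least 1500 transcripts and were used, with a median of 2840 transcripts per well and plate medians between 2188 and 4676. The plates share the same 192 well barcodes by design, and 0 cell names occurred on more than 1 plate. Wells were summed per replicate identifier and plate, which gave 68 sums of 7 to 76 wells from 44 replicates: 28 sums of 19 replicates on NC, and 6 of 6, 6 of 4, 7 of 5, 5 of 3, 6 of 2 and 10 of 5 after 1 day, 3 days, 1 week, 4 weeks, 9 weeks and 16 weeks of HFD. Plates 1, 2, 3, 7 and 9 held 1 replicate per diet, plate 5 held no NC well, and the only NC replicate of plate 4 had 7 wells. There are 29 distinct identifiers, of which 15 recur on plates that were not treated as linked, and there they were counted as different replicates, an assumption behind the number 44. Nothing in the sources used here says that an identifier is 1 mouse. The fit across genes treats the 68 sums as separate (49 residual degrees of freedom), although a replicate spread over several plates gives several sums, so its p-values measure the spread between sums and its intervals may be too narrow. With one sum per replicate 29 degrees of freedom remain. The well names of plate 13 carry different numbers of weeks, whose meaning is not given, and results that use this plate are also given with it split by them. On plate 1 the well names of the only NC replicate, L1, carry 4 and 10 weeks. Those of the HFD replicate, L2, carry 4 weeks, and plate 1 was not split. At least 3 UMIs of the microglial markers were found in 1616 of the 1617 wells. The same threshold for the markers of any other cell type was met by 256 wells, and for the endothelial list by 191 wells. The top gene of that list, Bsg, was found in 50.8% of the wells used. Wells said below to hold markers of other cell types therefore need not hold other cells. Per sum, the microglial markers reached 33535 to 57053 CPM, while the border macrophage markers reached at most 423 CPM, the monocyte markers 1108 CPM and the neutrophil markers 13039 CPM, and MHC class II transcripts were concentrated on plates 4 and 5.

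Cx3cr1 and Csf1r were by far the most abundant of the 9 receptors, and C5ar1 was the scarcest. Each transcript gives at most 1 tag at its 3′ end in this protocol, so CPM, the counts of a gene scaled to a common total per sum, can be compared between genes without a length correction. Cx3cr1 had a mean of 6349 ± 1265 CPM and Csf1r of 6313 ± 746 CPM (SD, n = 68 sums), and Cx3cr1 was the higher of the pair in 34 of 68 sums, so their order could not be told. Both lay far above Il6ra at 880.2 ± 180 CPM, below which Csf3r stood at 708 ± 172, Ifngr1 at 557 ± 174, Il6st at 363 ± 100.7, Il10ra at 299 ± 92.2, Tnfrsf1b at 183 ± 60.3 and C5ar1 at 43.4 ± 31.0 CPM. Csf1r exceeded Il6ra, and Tnfrsf1b exceeded C5ar1, in 68 of 68 sums. For the other steps in this order the ranges of mean ± SD overlapped, and the higher gene was higher in 49 to 62 of 68 sums.

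The share of wells with a receptor transcript followed the levels. At least 1 unique molecular identifier (UMI) of Csf1r was found in 1613 of 1617 wells, or 99.8% (exact binomial 95% interval 99.4 to 99.9%, counting error only), and Cx3cr1 gave the same number of wells. Il6ra was found in 87.1% of wells, Csf3r in 81.3%, Ifngr1 in 79.0%, Il6st in 58.3%, Il10ra in 54.2%, Tnfrsf1b in 41.2% and C5ar1 in 13.2%. These shares depend on depth, so each well was also thinned to 1000 UMIs in expectation, after which the mean share per sum was 99.1% for Csf1r, 98.3% for Cx3cr1, 55.7% for Il6ra, 48.5% for Csf3r and 4.15% for C5ar1. A typical well held UMIs of 5 to 7 of the 9 receptors (1194 wells, 73.8%), 22 wells held all 9 and 1 well held none. Of the 4 wells without Csf1r, 3 also held at least 3 UMIs of the markers of another cell type.

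**Figure D1:**
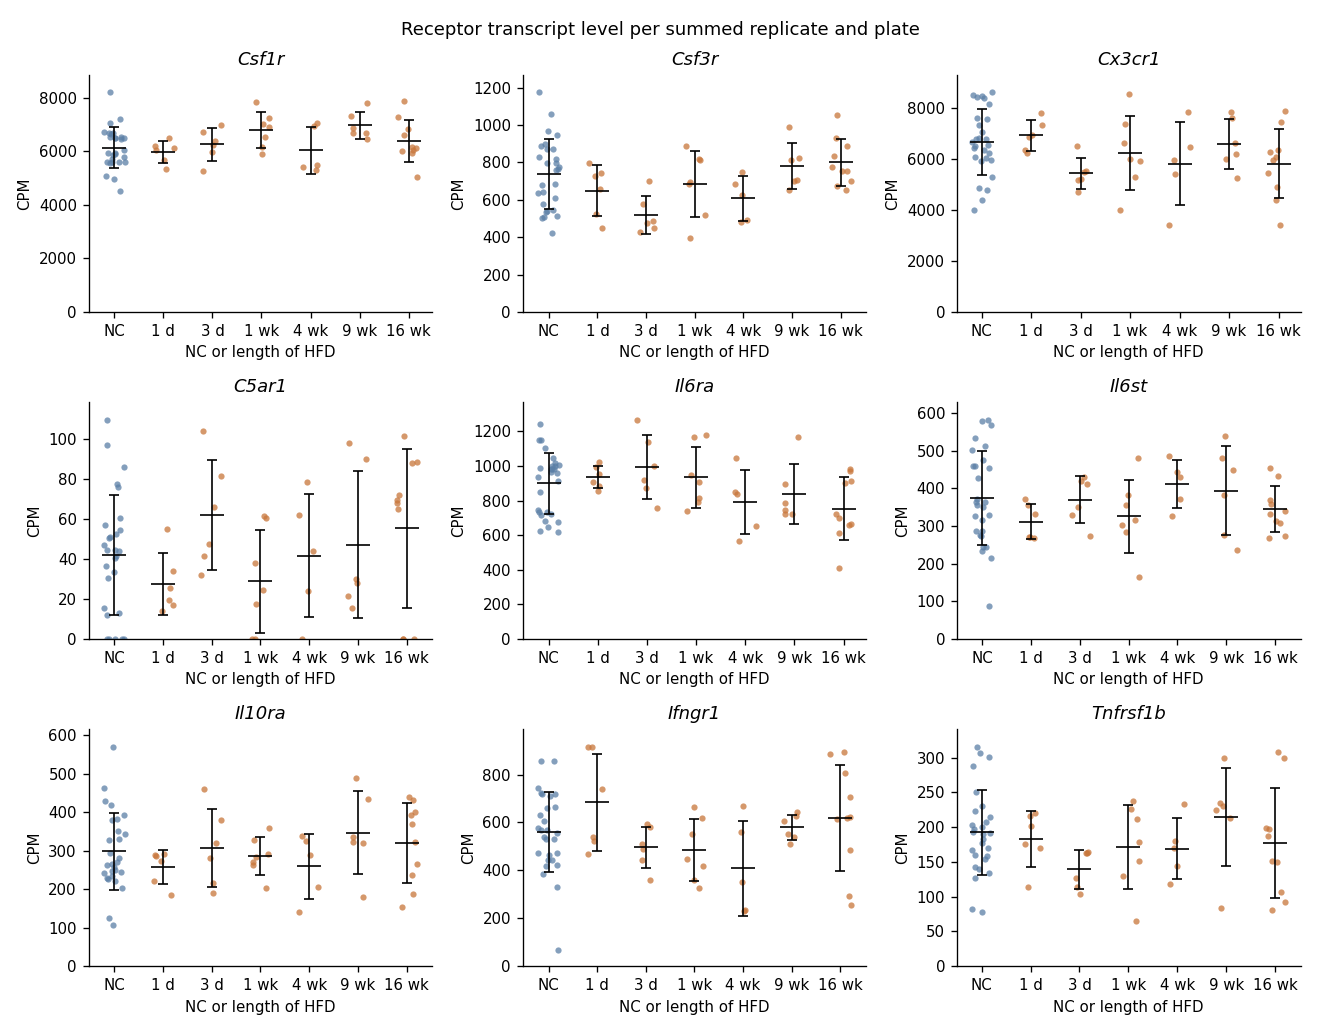
Level of each receptor (CPM, linear axes from 0) in every summed replicate and plate, for NC (blue) and each length of HFD (orange), with bars for the mean ± SD over sums. With plates pooled, the HFD and NC points overlap in all 54 pairings of a receptor with an HFD length. The NC points come from 12 plates that differ in level, so this overlap does not show that the diets are alike. The share of such overlap over all genes was not computed.

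No receptor differed between HFD and NC in the test across all genes. In edgeR's quasi-likelihood fit, with plate as a block, 2336 genes passed the filter on low counts, among them 8 of the 9 receptors. C5ar1 did not pass it. At an adjusted p under 0.05, 0 receptors were called at any length, read against a background of 0% of all genes tested in each of the 6 comparisons. DESeq2 also called 0 receptors. At an unadjusted p under 0.05, the background was 4.88% of genes after 1 day, 4.67% after 3 days, 4.2% after 1 week, 4.11% after 4 weeks, 6.34% after 9 weeks and 4.75% after 16 weeks, and the receptors gave 2 of 48 estimates, or 4.17%, both after 16 weeks. Over the 48 estimates the log2 fold change ran from -0.37 to 0.21, with 23 above and 25 below 0. The median log2 fold change of the 8 receptors was -0.030, -0.088, 0.058, -0.12, 0.087 and -0.033 from the shortest to the longest HFD, against medians of all genes between -0.011 and 0.0099.

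The intervals say how large a difference could have gone unseen, and they are narrow for the abundant receptors. Over the 6 lengths the 95% intervals of Csf1r lay between -0.34 and 0.33 on the log2 scale, that is, between 0.792-fold and 1.25-fold of NC. Those of Cx3cr1 lay between -0.38 and 0.44, those of Csf3r between -0.52 and 0.47 and those of Il6ra between -0.62 and 0.41. The scarcer chains were less well fixed, with bounds of -0.54 and 0.68 for Il6st, -0.68 and 0.72 for Il10ra, -0.62 and 0.62 for Ifngr1 and -0.92 and 0.57 for Tnfrsf1b. The lower bound of Tnfrsf1b, after 3 days, corresponds to 0.529-fold of NC.

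**Figure D2:**
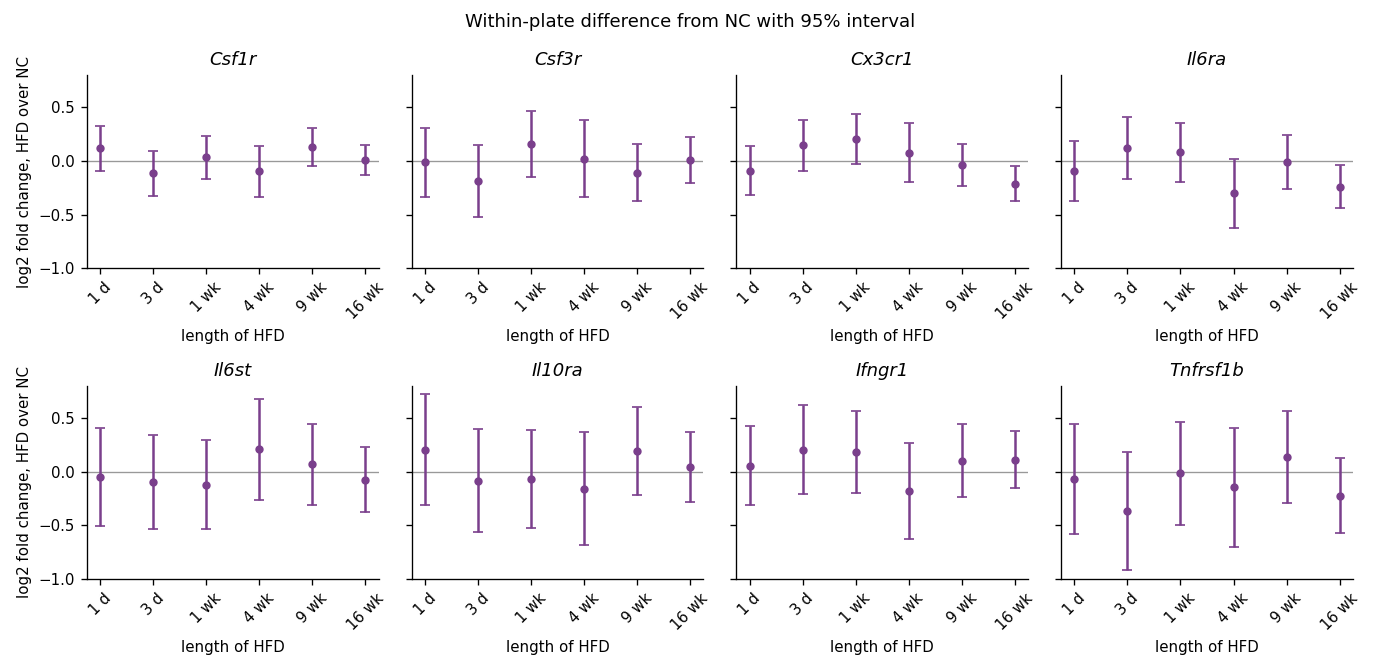
Log2 fold change of the 8 tested receptors at each HFD length against NC, from the edgeR fit with plate as a block; points are estimates and bars are 95% intervals before any correction for the number of genes. All but 2 intervals include 0, the exceptions being Cx3cr1 and Il6ra after 16 weeks, and neither passes the adjusted threshold.

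Of the growth factor receptors, Csf1r, which sustains microglia, ranged in NC sums from 4504 through a median of 6002 to 8209 CPM, and in HFD sums from 5035 through 6442 to 7883 CPM. The HFD range lay within the NC range. Its estimate had the smallest p among the receptors after 1 day (log2 fold change 0.12, SE 0.11, p = 0.26, edgeR adjusted p = 1.00) and again after 9 weeks (0.13, SE 0.09, p = 0.15, edgeR adjusted p = 0.87). Within plates its level after 1 day was 494 CPM above NC on average, higher than the plate's NC mean in 5 of 6 sums, with p = 0.135 in the two-sided exact permutation test. The HFD and NC means were 5947 and 5011 CPM on plate 6 but 6017 and 5966 CPM on plate 8. Immediate early genes, which rise during cell dissociation, were below the plate's NC mean in 5 of 6 sums after 1 day. After 9 weeks they were below it in 6 of 6 sums, and their part in the Csf1r values was not tested. Csf3r, which reads granulocyte colony-stimulating factor and is best known from neutrophils, ranged from 421 through 762 to 1175 CPM in NC sums and from 393 through 701 to 1056 CPM in HFD sums. With plates pooled, its groups overlapped at every length, as those of all 9 receptors did. Of the 10 neutrophil markers listed, only 3 were among the genes used. Only 3 wells, on plates 4 and 5, held 3 or more UMIs of these markers. Csf3r stood at 441 CPM in these wells, on 8 UMIs, against 719.9 CPM in all other wells.

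Cx3cr1, the fractalkine receptor, ranged from 3998 through 6608 to 8627 CPM in NC sums and from 3396 through 6140 to 8561 CPM in HFD sums. After 16 weeks of HFD it read 7894 CPM on plate 2 beside 8177 CPM on NC, and 7445 beside 8509 CPM on plate 3. On plate 10 the HFD sums were 4912 and 5464 CPM and the NC sums 5967 to 8476 CPM, and on plate 13 they were 3430 and 4380 CPM against 3998 to 5314 CPM. On plate 11 the HFD sums were 6081 and 6375 CPM against 5921 to 6669 CPM, and on plate 12 they were 5961 and 6293 CPM against 6546 to 8452 CPM. All 10 HFD sums were thus below their plate's NC mean, and the groups did not overlap on 4 of the 6 plates, 2 of which held 1 sum per diet. These sums come from 5 HFD replicates, since replicates recur on plates 2 and 3 and on plates 10 to 12, so the counts are not of independent values. Of all genes tested, 9.42% did not overlap on at least 4 of these plates.

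The 16-week log2 fold change of Cx3cr1 was -0.21 (SE 0.08, p = 0.0108), and it did not pass the adjusted threshold (edgeR adjusted p = 0.96). The within-plate difference, averaged over plates, was -871 CPM. The two-sided exact permutation of the diets among replicates, in which each set of linked plates counts once, gave p = 0.0156 over 450 assignments. This p was 1 of 3 values under 0.05 among the 54 permutation tests of level, of which only 36 could reach 0.05, so the share is 8.33% of those able to. Over all genes tested, the same permutation of level gave 5.01% under 0.05 after 16 weeks, 5.95% after 3 days, 5.61% after 1 day and 4.67% after 1 week. With one sum per replicate the edgeR log2 fold change was -0.21 (SE 0.11, p = 0.055), and without the wells that held markers of other cell types it was -0.17 (SE 0.093, p = 0.065). With plate 13 split by the weeks in its well names, 9 of 10 HFD sums were below the NC mean, with an average difference of -797 CPM (exact permutation p = 0.044). Without HFD replicate M10 of plate 13 the difference was -792 CPM and the exact permutation p was 0.06. On these plates the NC and HFD sums had mean depths of 3400 and 3598 transcripts per well, and 5 of the 10 HFD sums were deeper than their plate's NC mean. None of these sums is on plates 4 or 5. The immediate early genes, which rise during cell dissociation, were below the plate's NC mean in 8 of the 10 HFD sums, and their part in the Cx3cr1 values was not tested. The share of wells with Cx3cr1 after thinning was 98.9% after 16 weeks and 99.0% on NC on the same plates, where it is near its ceiling.

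After 3 days of HFD Cx3cr1 was above NC on the plates that held both diets, while over all plates pooled its 3-day mean of 5445 CPM was below the NC mean of 6670 CPM, and without the plate block the log2 fold change was -0.25. On plate 13 the HFD sums were 5537 and 6527 CPM and the NC sums 3998 to 5314 CPM, and on plate 4 the HFD sums were 5182 and 5494 CPM beside the single NC sum of 7 wells at 4775 CPM. All 4 HFD sums lay above the plate's NC mean, by 979 CPM on average (two-sided exact permutation p = 0.022, which is the smallest that its 45 assignments allow). Without plates 4 and 5 the difference was 1395 CPM over 2 HFD and 4 NC sums, with an exact permutation p of 0.067, the smallest then possible. Leaving out 3-day replicate M18 of plate 13 gave 731 CPM and an exact permutation p of 0.133. In the fit across all plates, which also uses the 3-day sums of plate 5, the log2 fold change was 0.15 with an interval from -0.09 to 0.38. With plate 13 split by the weeks in its well names, the NC replicates with the lowest levels there, M11 and M12, leave the comparison, and the difference was 755 CPM with an exact permutation p of 0.056, the smallest that 18 assignments allow. The MHC class II sum was above the plate's NC mean in all 4 of these HFD sums, and its part was not tested. After 1 week Cx3cr1 was the receptor with the smallest p (log2 fold change 0.21, SE 0.12, p = 0.081, edgeR adjusted p = 1.00), and after 9 weeks its value was -0.039. Without plates 4 and 5 the 1-week value was 0.057. On the plates with both diets the immediate early genes were above the plate's NC mean in all 5 of the 1-week sums. MHC class II transcripts were above it in 4 and below it in 1, and the part of either was not tested.

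**Figure D3:**
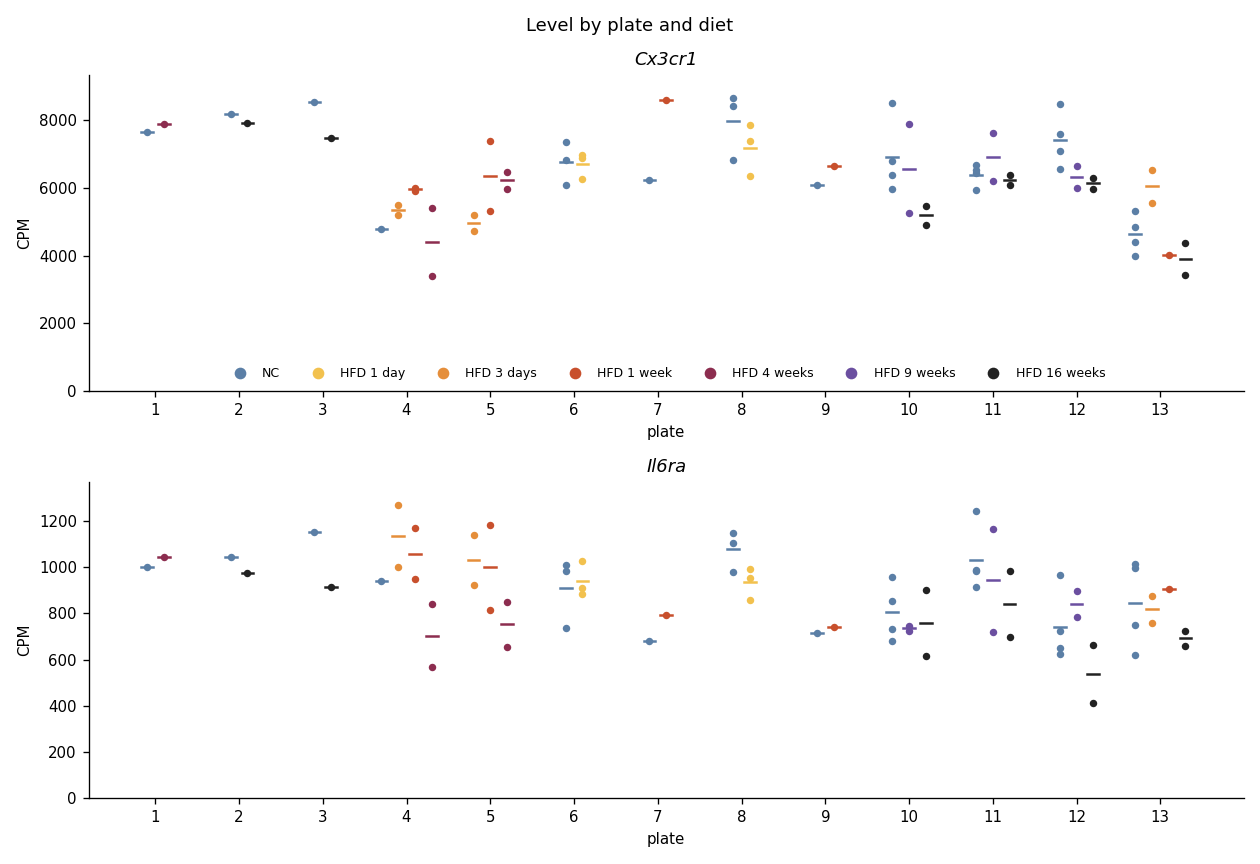
Level of Cx3cr1 and Il6ra (CPM) in each sum, by plate and diet; points are sums and short lines are means. Cx3cr1 after 16 weeks of HFD lies below the NC mean on plates 2, 3, 10, 11, 12 and 13, and its NC level itself runs from 4637 CPM on plate 13 to 8509 CPM on plate 3.

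C5ar1, the receptor of the complement fragment C5a, was close to the limit of detection. It gave 265 UMIs in all sums, was at 0 in 5 of 28 NC sums and in 6 of 40 HFD sums, and reached 110 CPM on NC and 104 CPM on HFD. Its exact permutation p-values were 0.356 or more at every length, and no direction can be read from it at this depth.

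Of the interleukin-6 receptor, the ligand-binding chain Il6ra ranged from 621 through 962 to 1243 CPM in NC sums and from 411 through 879 to 1269 CPM in HFD sums. On plate 4 its 4-week sums were at 567 and 839 CPM beside 939 CPM on NC, and on plate 1 its 4-week sum was at 1045 CPM beside 1003 CPM, so the direction differed between these plates. The NC sum of plate 1 joins wells whose names carry 4 and 10 weeks. It had the smallest p of the receptors after 4 weeks, with a log2 fold change of -0.30 (SE 0.16, p = 0.074, edgeR adjusted p = 1.00), and without plates 4 and 5 the sign of that value turned, to 0.074. On the plates with both diets all 3 of the 4-week sums were below the NC mean in summed microglial markers and above it in MHC class II transcripts, in the percentage of mitochondrial transcripts and in wells with markers of other cell types. Without the wells that held markers of other cell types the 4-week value was -0.42 (SE 0.19, p = 0.033, edgeR adjusted p = 0.99), and the part of the MHC class II and mitochondrial transcripts was not tested. After 16 weeks the log2 fold change was -0.24 (SE 0.10, p = 0.0212, edgeR adjusted p = 0.96), and without the wells that held markers of other cell types it was -0.12 (SE 0.13, p = 0.36, edgeR adjusted p = 0.98). On plates 2 and 3 the 16-week sums were at 974 and 913 CPM beside NC sums of 1045 and 1150 CPM. On plates 10 to 13 they ran from 411 to 984 CPM and the NC sums from 621 to 1243 CPM, and the diets overlapped on each of these plates. In all, 9 of 10 HFD sums lay below the plate's NC mean, by 151 CPM on average (two-sided exact permutation p = 0.0444), and with plate 13 split by weeks the difference was -155 CPM (exact permutation p = 0.0167).

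The share of wells with Il6ra after thinning was 56.1% on NC and 51.1% after 16 weeks on the same plates, a within-plate difference of -5.23 percentage points (exact permutation p = 0.0467). Without thinning it was -1.94 percentage points (exact permutation p = 0.213), and thinned to 2000 UMIs it was -3.83 percentage points (exact permutation p = 0.264). Single replicates left out gave -7.37 to -3.09 percentage points, with an exact permutation p of 0.05 or above for 11 of 14. The lowest and highest of these came without HFD replicates M6 and M5 of plates 10 to 12. Il6ra was also the receptor with the smallest p in the test of all 6 lengths together (p = 0.0247, edgeR adjusted p = 0.82), in which 5.69% of all genes had an unadjusted p under 0.05. Leaving out single replicates moved the exact permutation p of the 16-week level between 0.0167 and 0.113, over differences of -172 to -129 CPM, and 11 of the 14 were at 0.05 or above. HFD replicate M10 of plate 13 gave the highest of these p-values.

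Il6st, the signalling chain shared by the interleukin-6 family, ranged from 89.1 through 359 to 583 CPM on NC and from 164 through 353 to 539 CPM on HFD. After 3 days its share of wells after thinning was 24.3 and 22.2% on plate 4, beside 42.9% in the single NC sum, and 34.1 and 28.1% on plate 13, where NC ran from 34.5 to 49.0%. All 4 HFD sums were below their NC mean, by 14.7 percentage points on average (two-sided exact permutation p = 0.022, the smallest possible). MHC class II transcripts were above the plate's NC mean in all 4 of these sums, and their part was not tested. Without plates 4 and 5 the difference was -9.82 percentage points, with an exact permutation p of 0.133, and with plate 13 split by weeks it was -17.6 percentage points, with an exact permutation p of 0.056. The level test gave 144 CPM below NC (exact permutation p = 0.0667), and the fit, with plate 5 included, gave a log2 fold change of -0.094 with an interval from -0.53 to 0.35.

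Il10ra, which binds interleukin-10, ranged from 107 through 269 to 570 CPM on NC and from 140 through 290 to 490 CPM on HFD, with its HFD range inside that of NC. Ifngr1, which binds interferon gamma, ranged from 67.0 through 562 to 858 CPM on NC and from 229 through 552 to 916 CPM on HFD. The NC minimum of Ifngr1 was the 7-well sum of plate 4, with 2 UMIs. After 3 days the thinned share of wells with Ifngr1 was higher in 4 of 4 HFD sums, by 13.3 percentage points (exact permutation p = 0.044), and without plates 4 and 5 the difference was 5.63 percentage points with an exact permutation p of 0.333. With plate 13 split by weeks it was 12.4 percentage points (exact permutation p = 0.167).

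Tnfrsf1b, the second receptor of tumour necrosis factor, ranged from 78.1 through 191 to 316 CPM on NC and from 65.5 through 173 to 307 CPM on HFD. With plates pooled its groups overlapped at every length, and within plates they did not overlap on 4 of 4 plates after 1 week (32.1% of all genes tested), on 1 of 2 after 3 days (80% had at least 1) and after 4 weeks (2335 of 2336 genes, or 100% as rounded), on 1 of 3 after 9 weeks (37.3%) and on 3 of 6 after 16 weeks (44.7%). Over all 9 receptors the diets did not overlap in 76 of 171 pairings within a plate, or 44.4%, against 47.6% over all genes tested. Both shares include plates with 1 sum per diet, where values cannot overlap. After 3 days Tnfrsf1b had the smallest p of the receptors in the fit (log2 fold change -0.37, SE 0.28, p = 0.19, edgeR adjusted p = 0.99). Within plates 4 and 13 alone the difference was -1.91 CPM (exact permutation p = 0.978). The thinned shares gave 3 values under 0.05 in 54 exact permutation tests, those of Il6st and Ifngr1 after 3 days and of Il6ra after 16 weeks. This is 8.33% of the 36 able to reach 0.05, and over all genes tested the share was 5.39% after 1 day, 5.48% after 3 days, 4.71% after 1 week and 5.22% after 16 weeks. After 4 weeks and 9 weeks the smallest exact permutation p that the design allows is 0.167 and 0.0667, so neither length could reach 0.05.

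The levels differed between plates. Plate accounted for 54.1% of the variance of log2 CPM over the 68 sums for Cx3cr1, 47.1% for Csf1r, 42.9% for Ifngr1 and 42.6% for Csf3r, and for 34.9% for Il6ra, 24.0% for Il6st, 21.8% for Il10ra and 19.3% for Tnfrsf1b, against a median of 21.3% over all genes tested. Plate was entered first and so takes what it shares with HFD length. HFD length beyond plate accounted for 19.0% for Il6ra, 10.6% for Csf1r and 10.49% for Cx3cr1, and for 3.91 to 7.21% for the other 5, against a median of 7.67%. On NC, Cx3cr1 had plate means between 4637 CPM on plate 13 and 8509 CPM on plate 3.

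**Figure D4:**
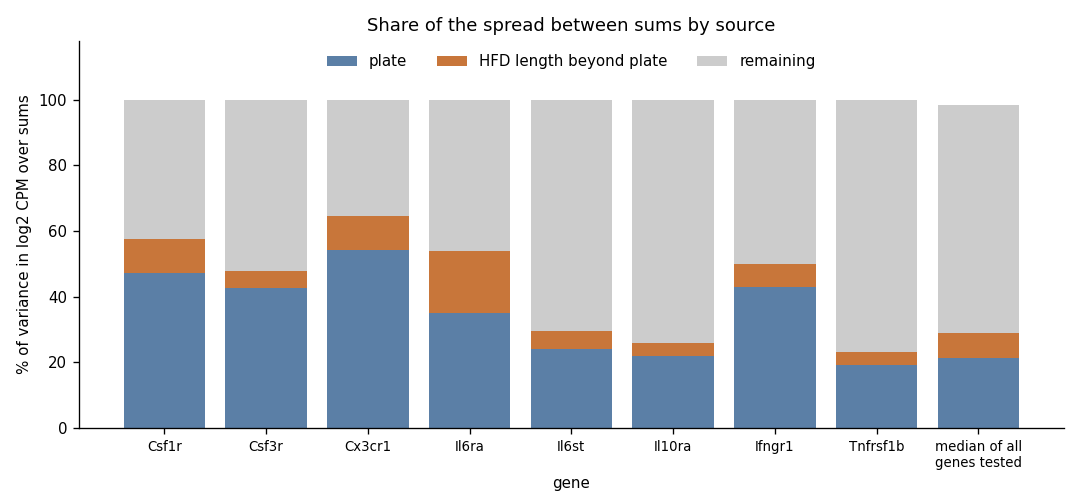
Share of the variance in log2 CPM over the 68 sums (stacked bars, percent) that goes with plate, with HFD length beyond plate, and with what remains, for the 8 tested receptors; the last bar stacks the medians of each share over all 2336 genes and so need not reach 100%. Plate takes 54.1% for Cx3cr1 and 19.3% for Tnfrsf1b.

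From well to well within a sum, the receptors differed in how far they departed from counting error. A ratio of observed to Poisson variance of 1 means counting error alone. The median ratio over sums was 3.04 for Cx3cr1, above 1 in 68 of 68 sums, and 1.82 for Csf1r, above 1 in 63 of 68. Such ratios grow with the count, and among the 20 genes with a mean of 10 to 40 UMIs per well, whose median was 2.93, 8 were above Cx3cr1 and 19 above Csf1r, the lowest of them. Without 270 wells holding markers of other cell types or MHC class II transcripts, the ratios over 66 sums were 2.65 for Cx3cr1 and 1.70 for Csf1r. Csf3r at 1.48 and Il6ra at 1.44 were higher than most of the 1019 genes with a mean of 0.5 to 4 UMIs, whose median was 1.20, with 54 and 80 genes above them. Ifngr1 at 1.14 and Tnfrsf1b at 1.13 lay close to counting error.

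After centring on the plate, the 28 pairs of the 8 receptors had Pearson correlations between -0.18 and 0.26 with a median of 0.03 over the 68 sums, which share plates and replicates. Of the pairs 18 were positive, and Il10ra with Ifngr1 was the highest. Counting error in the scarcer receptors lowers such values, by an amount not tested. Il6ra and Il6st, the chains of 1 receptor, stood at 0.03. The genes most like Cx3cr1 were Selplg, P2ry13 and Sparc, at 0.55, 0.54 and 0.51, all 3 on the list of microglial markers. Those most like Ifngr1 were Irf2, an interferon regulatory factor, with Cnppd1 and Dek, at 0.59, 0.54 and 0.52. Csf1r was closest to Slc9a9, Tprgl and Serinc3 at 0.46 to 0.44, Il6st to Acox3, Taz and Dtx4 at 0.53 to 0.49, and Csf3r to Arl1, RP23-264H19.2 and Krcc1 at 0.51 to 0.43. For Il6ra they were Soga1, Ago1 and Zfp950, for Il10ra Hdac5, Rpl35a and Med13l, and for Tnfrsf1b Brd2, Sel1l and Arf6, none of them above 0.46. These are the 3 highest of 2335 genes for each receptor, and the lowest correlations were of similar size, from -0.51 for Il6ra to -0.44 for Il10ra.

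The partners and signalling genes of these receptors gave the same count of calls. Of the partner chains 6 of 12 were tested, of the ligands 1 of 18, of the signalling genes 15 of 34, of the shedding proteases 2 of 4 and of other cytokine receptors 18 of 52, and 0 of them passed an edgeR adjusted p of 0.05 at any length. Il10rb is counted both among the partner chains and among the other cytokine receptors. This second chain of the interleukin-10 receptor had a median of 241 CPM over sums, and Ifngr2, the second chain of the interferon gamma receptor, 338 CPM. Tnfrsf1a, the other receptor of tumour necrosis factor, had a median of 153 CPM. Of the 10 ligands in the table, Tgfb1 was found in 42.0% of wells and Clcf1 in 20.3%, and the other 8 in 0.247% (Il10) to 4.64% (Il6), with Csf1 at 4.27% and Tnf at 2.35%. The smallest p over all lengths together belonged to Adam17, the protease that releases Tnfrsf1b and Il6ra from the membrane (p = 0.0391, edgeR adjusted p = 0.82), followed by Stat6 (p = 0.0821) and Il17ra (p = 0.0881). Adam17 had its largest estimate after 16 weeks, a log2 fold change of 0.49 (SE 0.17, edgeR adjusted p = 0.76), and Stat6 was at -0.52 (SE 0.22, edgeR adjusted p = 0.96) at the same length. Il17ra was at 0.67 after 4 weeks (SE 0.26, edgeR adjusted p = 1.00).

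In the GRCm38 annotation (GENCODE M21), Csf3r lies on chromosome 4 from 126024550 to 126044440 and Tnfrsf1b on the same chromosome from 145213463 to 145246870. Il6ra lies on chromosome 3 from 89864059 to 89913196, Il6st on chromosome 13 from 112464070 to 112510086, Ifngr1 on chromosome 10 from 19591949 to 19610229, Il10ra on chromosome 9 from 45253837 to 45269149, C5ar1 on chromosome 7 from 16246743 to 16259540, and Csf1r on chromosome 18. Cx3cr1, on chromosome 9 from 119901616 to 120069879, spans 4 other genes of the table in this annotation, Wdr48, Gorasp1, Ttc21a and Csrnp1, and Csf1r overlaps Hmgxb3 on the opposite strand. How reads in shared stretches were assigned is not given in the sources used here, so these values may include reads of the neighbours.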

How the data were processed

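Single cells were sorted into 192-well plates and measured by CEL-Seq2, which tags the 3′ end of each transcript with a UMI. Per the study's methods, reads were aligned with STAR to mm10 and counted with featureCounts. The deposited plate tables hold estimated counts, whose values follow a correction of UMI counts for saturation of 4096 tags, and undoing it gave whole UMIs for 100% of values within 0.01. From the filtered table only its 17280 gene names were used, and its 843 columns of values were not used.

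Wells with at least 1500 transcripts over these genes were summed per replicate identifier and plate (at least 5 wells), and CPM was computed from the sums. The members and gene lists were chosen with earlier results of these data known. The fit used edgeR 4.0.16 (quasi-likelihood, TMM, default filter, rounded sums, plate as a block, Benjamini-Hochberg over all genes tested). Levels and shares of wells thinned to 1000 UMIs were centred on the plate and tested by two-sided exact permutation of diets among replicates within linked plates, with unadjusted p, 54 tests each. The permutation used replicate means, with each set of linked plates counted once, whereas the differences printed beside its p are means over plates. Named genes were all 9 receptors, with fold changes for the smallest p at each length, for each the 3 genes of highest correlation, and the 3 list genes of smallest p. The other fold changes given and the levels of partner chains and ligands were named after their values were seen. The tests were checked on simulated data. Alternatives were DESeq2 and its size factors, limma voom, other filters and groupings, and each replicate left out.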

Additional observations from a re-analysis of the deposited data

Results flagged for a closer look

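Cx3cr1 was above its plate's NC mean in 4 of 4 sums after 3 days of HFD and below it in 10 of 10 sums, from 5 replicates, after 16 weeks. The difference between these lengths was -0.36 on the log2 scale (16 weeks minus 3 days, SE 0.14, p = 0.0094), and edgeR's adjusted p over 2336 genes was 0.87, so it did not pass. This pair was picked because all sums of one length lay above NC and all of the other below. Its unadjusted p thus follows a choice made on the same values. For this pair of lengths 5.27% of all genes had an unadjusted p under 0.05. Of the 120 differences between HFD lengths over the 8 tested receptors, 6 did (5%), against 4.11 to 6.42% of all genes over the 15 pairs of lengths, and of these 6 the largest for Cx3cr1 was 16 weeks minus 1 week (-0.42, p = 0.0028, edgeR adjusted p = 0.92), and Il6ra was at -0.42 for 4 weeks minus 3 days (p = 0.0072, edgeR adjusted p = 0.63). With plate 13 split by the weeks in its well names, 9 of 10 sums after 16 weeks were below. Plate 13 supplied NC wells to both comparisons.

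Within groups of NC or HFD replicates, 2 of 54 checks found a replicate set apart, about what the 1 in 20 that chance gives would allow. Tnfrsf1b was at 164 CPM in NC replicate M4 of plates 10 to 12, against 226 to 233 CPM in the 3 other replicates. Csf1r was at 5849 CPM in NC replicate M16 of plate 13, against 6537 to 6660 CPM in the other 3.

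The 879 wells under 1500 transcripts, with a median of 263, entered no comparison, yet they held receptor transcripts. Summed over them, Csf1r stood at 6626 CPM, Cx3cr1 at 5526, Il6ra at 681, Ifngr1 at 529.6, Csf3r at 409, Il10ra at 240.5, Il6st at 226, Tnfrsf1b at 206 and C5ar1 at 34.4 CPM. In the wells used, Csf1r stood at 6215 CPM, Cx3cr1 at 6695, Il6ra at 911, Ifngr1 at 588, Csf3r at 719, Il10ra at 296, Il6st at 347, Tnfrsf1b at 189 and C5ar1 at 51.2 CPM. Whether these wells held intact cells was not tested.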

How the results depend on the processing

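The count of receptors called was 0 in all 14 alternatives and with each of the 44 replicates left out. Counts over all genes, 0 in the main analysis, differed as follows. Without the plate block, 3 genes were called after 1 day, 29 after 3 days, 16 after 1 week, 23 after 4 weeks, 1 after 16 weeks and 59 over all lengths. Without a filter on low counts, 6 were called after 3 days, 6 after 1 week, 12 after 4 weeks, 4 after 9 weeks, 4 after 16 weeks and 30 over all lengths. With one sum per replicate the counts were 1 after 3 days, 7 after 4 weeks, 1 after 16 weeks and 5 over all lengths, and without plates 4 and 5 they were 1 after 3 days, 9 after 1 week, 2 after 4 weeks, 2 after 16 weeks and 13 over all lengths. Fits of only the plates with both diets called 3 genes after 1 week and 1 after 9 weeks, limma voom called 1 after 1 week, 1 after 16 weeks and 4 over all lengths, and DESeq2 called 1 after 9 weeks. With single replicates left out the count ran from 0 to 3 after 4 weeks and from 0 to 6 over all lengths, and was 0 elsewhere. The cause of these differences was not tested.

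Of the 48 fold changes, 10 were followed over the alternatives, and 6 of these turned sign in at least 1 alternative. Without the plate block Csf1r after 1 day was -0.053, Cx3cr1 after 1 week -0.063 and after 3 days -0.25, and Il6st after 3 days 0.073 on the log2 scale. Without a filter Il6st after 3 days was 0.14, without plates 4 and 5 Il6ra after 4 weeks was 0.074, and without replicate M7 Cx3cr1 after 9 weeks was 0.098. The 16-week estimate of Cx3cr1 ran from -0.26 to -0.17 over the 12 alternatives and from -0.23 to -0.18 with replicates left out, and that of Il6ra from -0.29 to -0.12 and from -0.26 to -0.18. Of the 54 exact permutation tests of detection, 3 were under 0.05. The count was 1 with wells thinned to 2000 UMIs, 1 without plates 4 and 5 and 1 with plate 13 split by weeks, and 2 in each of the other 2 alternatives. With at least 10 wells per sum the 16-week difference of Cx3cr1 was -826 CPM (exact permutation p = 0.1). Of the 54 tests of level, 2 or 3 were under 0.05 in each of 4 alternatives. The splitting of plate 13 by the weeks in its well names, the 7-day wells alone or left out, and the level test without plates 4 and 5 were chosen after seeing the data.

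No paired analysis was possible because the replicate identifiers do not link NC with HFD, and the replicate numbers in the sample labels only number the plates. With 7 to 76 wells per sum, depth limits C5ar1, Tnfrsf1b, Il10ra and Il6st most.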

Other observations

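On plates 4 and 5, 33 of 197 wells held at least 5 UMIs of MHC class II genes, a cut set after seeing the data, with 65 wells at 3 to 7 UMIs near it. In all 6 replicates with both kinds of well, Cx3cr1, Csf1r, Il6ra and C5ar1 were lower in these wells than in the other wells of the same replicate, C5ar1 on 4 UMIs. Cx3cr1 averaged 4020 ± 982 CPM in them and 5580 ± 580 CPM in the others (SD, n = 6 replicates), Csf1r 5132 ± 1321 against 6690 ± 433 CPM, and Il6ra 644 ± 224 against 998 ± 208 CPM. Il6st averaged 231 ± 140 against 417 ± 121 CPM and Ifngr1 349 ± 273 against 416 ± 201 CPM, each lower in 5 of 6 replicates. Summed over wells, Ifngr1 stood at 429 against 446 CPM, and its thinned share was 35.5 against 35.6%. Csf3r, Il10ra and Tnfrsf1b were lower in 3 of 6 replicates. The microglial marker P2ry12 was also lower in 6 of 6, at 2008 ± 747 against 4138 ± 290.4 CPM. Summed over wells, the monocyte marker Ccr2 stood at 838 CPM in the MHC class II wells and at 5.68 CPM in the others. It was higher in 4 and lower in 1 of the 6 replicates. The border macrophage marker Mrc1 stood at 212 and 21.3 CPM, higher in 3 and lower in 2 replicates. The border macrophage marker Cd163 stood at 9.23 CPM, on 2 UMIs, and at 8.52 CPM, higher in 2 and lower in 2 replicates. The wells differed in depth, with medians of 6069 and 4320 transcripts, and no p is given because the cut was set after the values were seen.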
